A study of Mus musculus with 6 samples.

Results

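The data described here are the transcripts of the respiratory chain in CD8 T cells of tumors and draining lymph nodes (LNs). Genes were chosen by symbol. From the nuclear genome the families Nduf, Sdh (subunits a to d), Uqcr, Cox4 to Cox8 and Atp5 were taken. From the mitochondrial genome every gene with counts here was taken, with symbols that start with mt-, all of them protein-coding. Of 107 such genes, 101 had at least 100 unique molecular identifiers (UMIs, each standing for 1 captured RNA molecule) over the 4 libraries, among 11993 genes with that many of 32285 in the files. These were 88 nuclear genes (37 of complex I, 8 assembly factors of complex I named Ndufaf, 4 of complex II, 8 of complex III, 14 of complex IV and 17 of complex V) and 13 mt- genes (7 of complex I, 1 of complex III, 3 of complex IV and 2 of complex V). Ndufa4, named after complex I, was counted with complex IV, where it is now placed. The other 6 were the tissue-restricted isoforms Cox4i2, Cox6a2, Cox7b2, Cox8b, Cox8c and Ndufa4l2, with 0 to 14 UMIs each in all.

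CD8 T cells came from mice engrafted with B16-OVA, a melanoma line that makes ovalbumin, at day 12 by the labels (the study's text gives a short range of days starting there). Control mice were CD8-Cre Rosa26Tomato, and CD8-IFNγRKO mice carried IFNgR1flox/flox in addition, so both genotypes held the Cre and the red reporter, and the Cre, driven by the CD8α promoter, acts in mature CD8 T cells. Cells of 3 mice per genotype were pooled, sorted as CD45+CD3+CD8+Tomato+ and sequenced as 1 library per tissue and genotype, so there were no replicate libraries, and every interval given is a 95% interval of counting error alone. The labels give no age or sex of these mice. Tumors were digested with enzymes whereas LNs were pressed through a strainer, and the tissue and its handling cannot be told apart.

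The respiratory chain passes electrons from NADH (complex I) and succinate (complex II) through complex III to oxygen at complex IV, and the proton gradient this builds drives the ATP synthase, complex V. Its subunits are encoded by 2 genomes: the mitochondrial genome encodes a few hydrophobic core subunits of complexes I, III, IV and V, and the nuclear genome encodes the rest, all of complex II included. Naive T cells keep a small mitochondrial pool that is expanded after activation, and mitochondrial fitness of tumor-infiltrating CD8 T cells is known to decline as they become exhausted.

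After filtering, 6641 to 8636 cells per library held 28841136 to 93995655 UMIs, with a median per cell of 9402.5 UMIs in the CD8-IFNγRKO tumor, 6308 in the control tumor, 3863 in the CD8-IFNγRKO LN and 4051 in the control LN. Ifngr1, the deleted gene, stood at 237 CPM (UMIs of the gene per 1000000 UMIs of the library) in the CD8-IFNγRKO tumor against 718 CPM in the control tumor, and at 137 against 182 CPM in LN. CD8 T cell markers summed to 5358 to 8748 CPM. In the CD8-IFNγRKO tumor 6 of 7 were lower past the fold used here (a log2 ratio of 0.3), against 16.8% of all genes. Of these markers, Cd2, Cd8a and Cd8b1 were required in every kept cell, and the part of this filter in their ratios was not tested. Markers of macrophages or dendritic cells summed to 37.8 CPM in the CD8-IFNγRKO tumor, 90.4 CPM in the control tumor and 12.96 to 20.1 CPM in LN. Cd74 was the largest part in both tumors, at 14.0 and 51.1 CPM, and H2-Aa stood at 3.74 and 15.7 CPM. Of 9 of these markers, 6 were lower past the fold in the CD8-IFNγRKO tumor, against 16.8% of all genes. Only Itgax was higher (0.73), where 22.4% of all genes were. Which cells made Cd74 and H2-Aa was not tested. Markers of B cells summed to 18.7 and 7.56 CPM in the CD8-IFNγRKO and control tumor, and to 250 and 241 CPM in the corresponding LNs. Most of this was Ighm, at 228 and 223 CPM in these LNs. No setting left out cells with B cell UMIs, and their part in the comparisons of tumor and LN was not tested. Pairs of libraries shared 169 to 249 cell barcodes, at most 2.19% of the smaller one. A UMI of a proliferation gene was seen, after thinning each cell to 1600 UMIs, in 62.6% of cells of the CD8-IFNγRKO tumor, 35.0% of the control tumor and 2.48% and 2.94% of the CD8-IFNγRKO and control LN. Heat shock genes moved with the genotype as well. In the CD8-IFNγRKO tumor 7 of 8 were higher past the fold (median log2 ratio 0.85), against 22.4% of all genes. In the CD8-IFNγRKO LN 6 of 8 were (0.52), against 6.86% of all genes. Without the cells that held at least 3 macrophage or dendritic cell UMIs, the ratio of mt- sums between tumor genotypes was 0.19 and the nuclear ratio 0.03, with 10 nuclear genes higher and 4 lower past the fold and 4 mt- genes higher. Shares of all genes without these cells were not computed, so these counts describe the members alone. The part of the heat shock difference was not tested. Values within classes of depth and proliferation are given below.

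Motifs of known regulators, which the selection by symbol did not use, were more frequent in promoters of the nuclear members than in those of all genes, although 33 of 75 held none of the 4 searched. RefSeq promoters on GRCm38.p6, 250 bases before to 50 after the start, were at hand for 75 of the 88 nuclear members. The NRF1 motif (GCGCA, any base, then GCGC) was held by 19 of 75 (25.3%), against 5.19% of 27025 genes. The ETS motif CCGGAAG was held by 19 of 75 (25.3%) against 9.93%, the YY1 motif AANATGGCG by 11 (14.7%) against 2.76%, and the estrogen-related receptor motif TNAAGGTCA by 3 (4%) against 1.43%. Both strands were searched. At least 1 of these 4 motifs was held by 42 of 75 members (56.0%) and by 17.1% of all genes. The members had to reach the minimum of UMIs, whereas the 27025 genes were taken whether detected here or not. The share among detected genes was not tested. These values therefore cannot tell the respiratory chain from detected genes in general. NRF1 motifs were in 7 of 33 promoters of complex I and 6 of 15 of complex V, but in 1 of 12 of complex IV. A match is a run of letters and no evidence of binding.

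The 250 bases upstream of the start follow, 5′ to 3′ on the gene's strand, for genes picked by their ratios or their motif matches. Among nuclear genes with 20 CPM in either library, Ndufb8 and Cox7a2l had the highest and lowest ratio between tumor and LN in control mice, and Ndufa4 and Uqcrh had the highest and lowest ratio between genotypes in the tumor. Ndufb4 and Cox6a1 were among the members with most motif matches upstream. Capitals mark motif matches.
Ndufb8 (GRCm38.p6, chr19:44555443-44555692, strand −): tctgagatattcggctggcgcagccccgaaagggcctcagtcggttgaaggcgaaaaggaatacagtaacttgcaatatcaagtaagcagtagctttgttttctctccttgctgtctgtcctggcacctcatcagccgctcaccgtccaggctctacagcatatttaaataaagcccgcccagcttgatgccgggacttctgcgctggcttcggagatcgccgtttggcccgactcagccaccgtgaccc
Cox7a2l (GRCm38.p6, chr17:83514334-83514583, strand −): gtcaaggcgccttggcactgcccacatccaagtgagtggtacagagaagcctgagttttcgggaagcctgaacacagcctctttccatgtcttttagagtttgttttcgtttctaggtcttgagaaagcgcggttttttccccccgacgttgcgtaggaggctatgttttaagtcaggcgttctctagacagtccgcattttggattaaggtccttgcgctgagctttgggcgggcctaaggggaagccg
Ndufa4 (GRCm38.p6, chr6:11907451-11907700, strand −): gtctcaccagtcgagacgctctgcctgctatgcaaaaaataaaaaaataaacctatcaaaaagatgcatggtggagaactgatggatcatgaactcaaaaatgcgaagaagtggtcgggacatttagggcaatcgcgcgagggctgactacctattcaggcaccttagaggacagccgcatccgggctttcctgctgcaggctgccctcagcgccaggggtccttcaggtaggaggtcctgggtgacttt
Uqcrh (GRCm38.p6, chr4:116075071-116075320, strand −): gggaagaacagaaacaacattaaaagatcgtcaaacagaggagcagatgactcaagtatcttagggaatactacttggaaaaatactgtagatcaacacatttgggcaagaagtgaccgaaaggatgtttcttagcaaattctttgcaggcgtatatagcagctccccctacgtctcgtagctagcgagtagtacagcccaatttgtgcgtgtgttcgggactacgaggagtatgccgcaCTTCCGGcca
Cox6a1 (GRCm38.p6, chr5:115348959-115349208, strand −): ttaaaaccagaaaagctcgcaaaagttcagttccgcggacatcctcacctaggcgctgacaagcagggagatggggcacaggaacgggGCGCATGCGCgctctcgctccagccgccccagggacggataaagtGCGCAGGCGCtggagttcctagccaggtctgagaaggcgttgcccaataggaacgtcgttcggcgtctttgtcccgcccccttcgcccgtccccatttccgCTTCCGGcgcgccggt
Ndufb4 (GRCm38.p6, chr16:37654369-37654618, strand −): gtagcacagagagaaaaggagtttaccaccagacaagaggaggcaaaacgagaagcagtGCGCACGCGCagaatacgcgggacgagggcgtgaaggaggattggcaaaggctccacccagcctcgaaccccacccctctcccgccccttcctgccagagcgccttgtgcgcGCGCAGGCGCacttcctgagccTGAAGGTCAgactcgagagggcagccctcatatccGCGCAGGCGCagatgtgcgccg
Cox6a1 held NRF1 matches 162 and 117 bases upstream of the start and an ETS match 16 bases upstream. Ndufb4 held NRF1 matches 191, 79 and 22 bases upstream and an estrogen-related receptor match 57 bases upstream. Of the 4 genes at the ends of the ratios only Uqcrh held a match to any of these motifs, an ETS motif 10 bases upstream.

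As shares of UMIs, the nuclear and mitochondrial parts of the respiratory chain in tumor CD8 T cells lay on opposite sides of LN cells. Nuclear members summed to 27175 CPM in the control tumor against 18580 CPM in the control LN (log2 ratio 0.55, 0.54 to 0.55), whereas the 13 mt- genes summed to 6730 CPM against 11991 CPM (−0.83, −0.84 to −0.83). In CD8-IFNγRKO mice the nuclear sum was 27573 CPM in tumor against 18105 CPM in LN (0.61, 0.60 to 0.61) and the mt- sum 7647 CPM against 12386 CPM (−0.70, −0.70 to −0.69). The ratio of nuclear to mt- UMIs was 3.61 in the CD8-IFNγRKO tumor and 4.04 in the control tumor, against 1.46 and 1.55 in the respective LNs. Per cell, the averages were 300.1 nuclear and 83.2 mt- UMIs in the CD8-IFNγRKO tumor, 227.6 and 56.4 in the control tumor, 77.6 and 53.1 in the CD8-IFNγRKO LN and 83.7 and 54.0 in the control LN. Tumor cells thus held more nuclear UMIs per cell than LN cells. The log2 ratio of mt- UMIs per cell was 0.06 in control and 0.65 in CD8-IFNγRKO mice. Tumor libraries were also deeper per cell, and depth and RNA content cannot be told apart in these counts. The mt- share of a cell's UMIs had medians of 0.723% and 0.631% in the CD8-IFNγRKO and control tumor and 1.22% and 1.16% in the corresponding LNs, all under the 3% limit used to keep cells, a limit on the mt- genes themselves that by itself removed 14 to 64 cells per library. Without it every count of genes given below for these comparisons was within 1.5 times its value.

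A log2 ratio of 0.3 in either direction (1.23-fold) was taken as the fold to count genes by. In control mice, 57 of 88 nuclear members were higher in tumor past this fold and 4 were lower, with a median log2 ratio of 0.49, where 37.7% of 11992 genes were higher and 37.3% lower with a median of −0.00. Among genes that reached 50 CPM in 1 of the libraries compared, as most members did, 46.2% were higher and 28.3% lower, with a median of 0.21. In CD8-IFNγRKO mice, 67 of 88 were higher and 2 lower (median 0.58), against 39.0% and 37.3% of all genes and 46.6% and 29.5% of those with 50 CPM, whose median was 0.23. Higher past the fold in both genotypes were 55 genes, of the 57 and the 67, and 2 were lower in both, against 33.0% and 32.1% of 11991 genes, and 39.8% and 25.6% of those that reached 50 CPM in each comparison. These comparisons share no library. All 13 mt- genes were lower in the control tumor (median −1.06). In CD8-IFNγRKO mice 12 were (median −0.83), and mt-Co2 was at −0.28. Taken relative to the median of genes with 50 CPM, the nuclear median was 0.28 in control and 0.35 in CD8-IFNγRKO mice, and the mt- sum was at −1.04 and −0.92. Ribosomal protein genes took 32.8 to 33.9% of LN UMIs and 20.03 to 20.2% of tumor UMIs, and a total without mt-, ribosomal protein, T cell receptor and heat shock genes moved every ratio between tumor and LN by −0.29 in control and −0.26 in CD8-IFNγRKO mice, so that 37 of 88 nuclear members were then higher in the control tumor and 11 lower, against 28.0% and 49.5% of all genes under the same total.

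**Figure D1:**
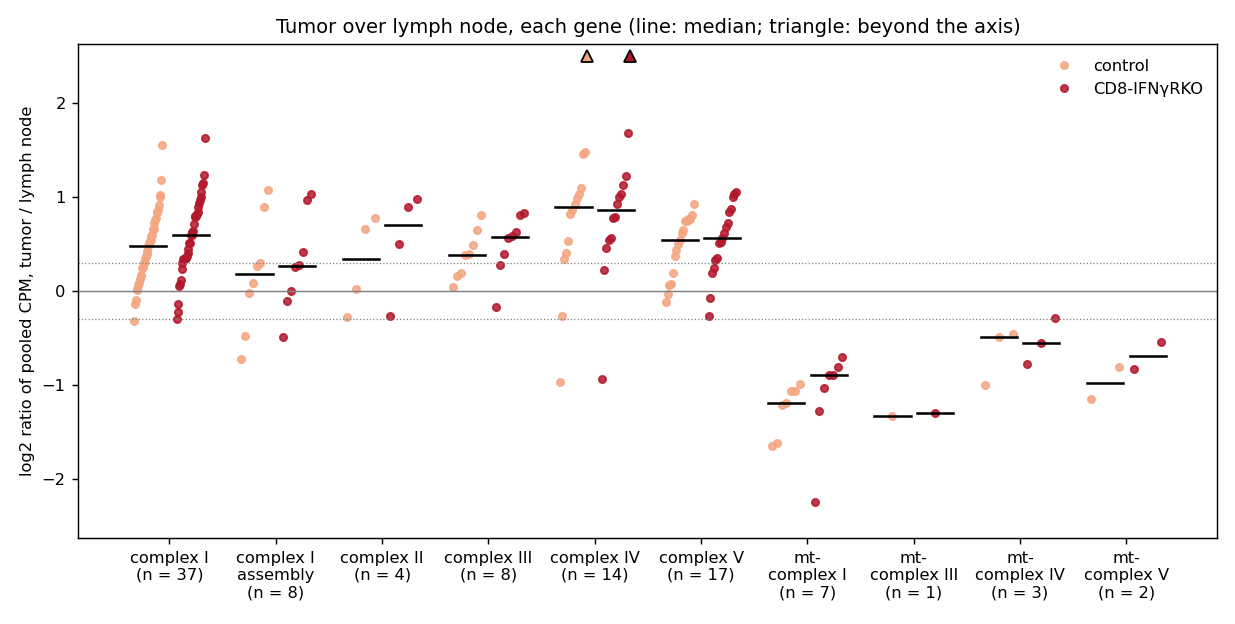
Log2 ratio of pooled CPM, tumor over LN, for each of the 88 nuclear and 13 mt- genes by complex, in control (light) and CD8-IFNγRKO mice (dark). Dotted lines mark ±0.3 and triangles a gene beyond the axis (Cox7a1), and every mt- gene lies below 0 while 77 of 88 nuclear genes in each genotype lie above.

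Complex I, the entry point for NADH, had 23 of 37 nuclear subunits higher and 1 lower in the control tumor, and 30 higher and 0 lower in the CD8-IFNγRKO tumor. Of all genes, 37.7% and 39.0% were higher in control and CD8-IFNγRKO mice and 37.3% lower in each. Of genes with 50 CPM, 46.2% and 46.6% were higher. Ndufb8, an accessory subunit of the membrane arm, was furthest up, at 269 CPM in the control tumor and 280 CPM in the CD8-IFNγRKO tumor against 92.1 and 90.7 CPM in the LNs (log2 ratios 1.55, 1.49 to 1.61, and 1.63, 1.57 to 1.68). Lowest were Ndufs1, the iron-sulfur subunit of the NADH arm, in control mice (32.4 against 40.4 CPM, −0.32, −0.42 to −0.21) and Ndufa6 in CD8-IFNγRKO mice (273.7 against 336 CPM, −0.29, −0.33 to −0.26). Among the assembly factors, Ndufaf7, a methyltransferase, was higher in tumor (1.07 and 1.03 in control and CD8-IFNγRKO mice), whereas Ndufaf4 was lower (−0.73 and −0.49).

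Of the 4 subunits of complex II, succinate dehydrogenase, 2 were higher past the fold in control and 3 in CD8-IFNγRKO mice, and 0 were lower. Sdhd was at 0.66 and 0.90, and Sdhc at 0.02 and 0.50. Sdhb, which carries the iron-sulfur clusters, stood at 236 and 256 CPM in the control and CD8-IFNγRKO tumors against 137 and 129 CPM in LN (0.78 and 0.98), while Sdha, the flavoprotein that binds succinate, was at 113 CPM in both tumors against 137 and 136 CPM in LN (−0.28, −0.34 to −0.22, and −0.27, −0.32 to −0.22). For complexes II and III, the shares of all genes higher past the fold were 37.7% in control and 39.0% in CD8-IFNγRKO mice. Among genes with 50 CPM they were 46.2% and 46.6%. In complex III, 5 of 8 subunits in control and 6 of 8 in CD8-IFNγRKO mice were higher past the fold, with Uqcrb at the top (0.80 and 0.83). The lowest was the core subunit Uqcrc2 in control mice (0.04, −0.01 to 0.10) and the hinge protein Uqcrh in CD8-IFNγRKO mice (−0.17, −0.19 to −0.14).

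Complex IV, cytochrome c oxidase, had the highest median, 0.89 in control and 0.86 in CD8-IFNγRKO mice, with 12 of 14 genes higher past the fold in each. These 12 included Cox7a1 and Cox6b2, which reached at most 2.83 CPM in any library. For complexes IV and V, the shares of all genes higher were 37.7% in control and 39.0% in CD8-IFNγRKO mice. Among genes with 50 CPM they were 46.2% and 46.6%. Cox5a, which surrounds the catalytic core, stood at 686 and 756 CPM in the control and CD8-IFNγRKO tumors and at 249 and 236 CPM in the LNs (1.46, 1.42 to 1.49, and 1.68, 1.64 to 1.71). Ndufa4 lay within the fold in both genotypes (−0.27 and 0.22). The only gene lower past the fold was Cox7a2l, known as an assembly factor of supercomplexes, at 107 and 105 CPM in tumors against 210 and 201 CPM in LNs (−0.97 and −0.94). In complex V, 12 of 17 genes in control and 13 of 17 in CD8-IFNγRKO mice were higher past the fold and 0 were lower. Atp5g3, 1 of 3 genes for the c ring, was highest in control mice (908 against 477 CPM, 0.93), the coupling factor gene Atp5j was highest in CD8-IFNγRKO mice (526 against 254 CPM, 1.05), and the small subunit gene Atp5mpl was lowest in both (−0.12 and −0.27).

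**Figure D2:**
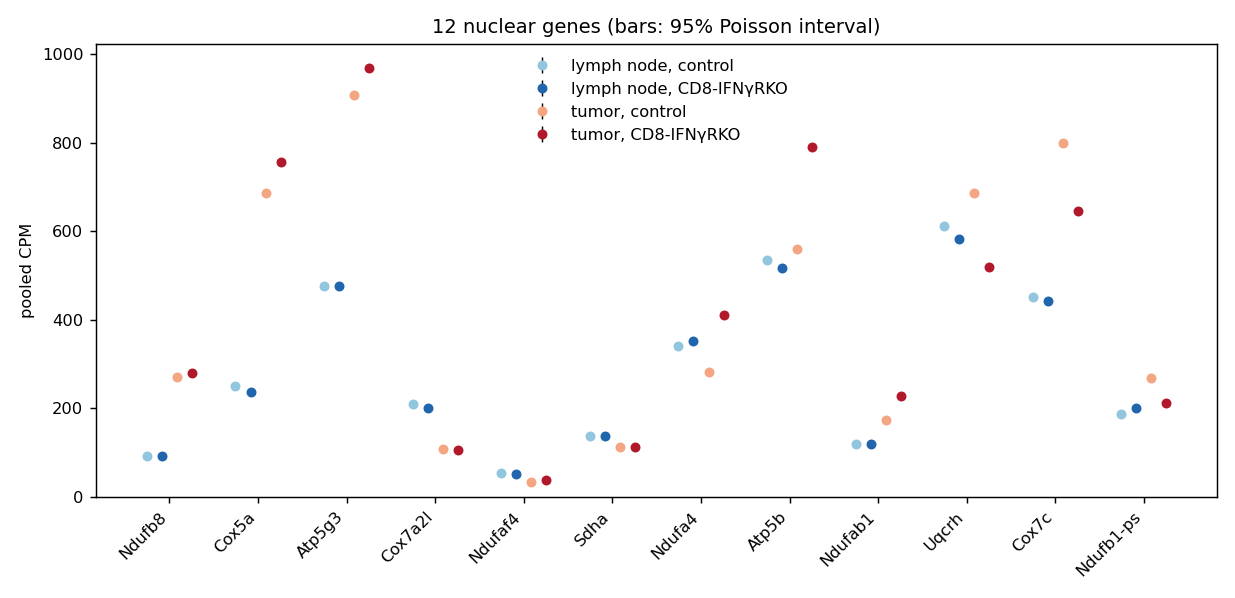
Pooled CPM of 12 nuclear genes in the 4 libraries, with 95% Poisson intervals that are mostly smaller than the points. Ndufb8, Cox5a and Atp5g3 are high in both tumors, Cox7a2l, Ndufaf4 and Sdha are high in both LNs, and the 6 genes on the right differ between the tumors.

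For subunits with isoforms, the form known from most tissues was the one detected at high levels. Cox4i1, Cox6a1, Cox6b1, Cox7a2, Cox7b and Cox8a stood between 239 and 1430 CPM in every library, and the ratios between tumor and LN in control mice were 0.53, 0.34, 0.92, 1.10, 0.40 and 1.03. The corresponding ratios in CD8-IFNγRKO mice were 0.56, 0.77, 0.93, 1.13, 0.45 and 1.00. Their partners Cox4i2, Cox6a2, Cox7b2 and Cox8b had at most 14 UMIs in all 4 libraries together. Cox7a1, the form of heart and skeletal muscle, had 266 UMIs in the CD8-IFNγRKO tumor and 117 in the control tumor against 1 and 5 in the corresponding LNs (control ratio 3.56, 2.29 to 5.21, and CD8-IFNγRKO ratio 6.35, 3.86 to 11.66). Cox6b2, the testis form, had 153 and 133 UMIs in the CD8-IFNγRKO and control tumors against 23 and 24 in LN (1.03, 0.39 to 1.73, and 1.48, 0.84 to 2.17). Both reached at most 2.83 CPM in any library. Between genotypes in the tumor, Cox4i1 (−0.03), Cox6b1 (−0.08), Cox7a2 (0.02), Cox7b (0.08) and Cox8a (−0.06) lay close to 0, and Cox6a1 was past the fold (0.40, 0.38 to 0.43). Of the genes for the c ring, Atp5g1 differed least between tumor and LN (0.07 in control and 0.25 in CD8-IFNγRKO mice), Atp5g2 was at 0.37 and 0.51, and Atp5g3 at 0.93 and 1.03. Between tumor genotypes they stood at 0.15, 0.05 and 0.09.

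The 13 mt- genes lie at positions 2751 to 15288 of the mitochondrial chromosome and are transcribed as long precursors. In control mice mt-Nd2 was at 165 CPM in tumor against 515 CPM in LN (−1.64, −1.68 to −1.61), and mt-Nd3 at 13.7 against 42.0 CPM (−1.62, −1.75 to −1.49). The other complex I genes mt-Nd1, mt-Nd4, mt-Nd4l, mt-Nd5 and mt-Nd6 lay between −1.21 and −0.99. In CD8-IFNγRKO mice mt-Nd2 was at 219 against 532 CPM (−1.28, −1.31 to −1.25), mt-Nd3 at 11.2 against 52.9 CPM (−2.24, −2.35 to −2.12), and the other 5 between −1.03 and −0.70. The gene of cytochrome b in complex III, mt-Cytb, was at 544 and 600 CPM in the control and CD8-IFNγRKO tumors against 1365 and 1476 CPM in LN (−1.33 and −1.30).

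The mt- genes nearest to 0 were mt-Co1 and mt-Co2 of complex IV. In control mice mt-Co1, the oxygen-binding subunit, was at 1930 against 2705 CPM (−0.49) and mt-Co2, which takes electrons from cytochrome c, at 1121 against 1535 CPM (−0.45), while mt-Co3 was at 454 against 904 CPM (−0.995). In CD8-IFNγRKO mice mt-Co1 was at 1947 against 2856 CPM (−0.55), mt-Co2 at 1262 against 1538 CPM (−0.28) and mt-Co3 at 520 against 893 CPM (−0.78). The proton channel subunit mt-Atp6 was at 357 against 794 CPM in control (−1.15) and 466 against 829 CPM in CD8-IFNγRKO mice (−0.83), and mt-Atp8 at 950 against 1664 CPM (−0.81) and 1152 against 1683 CPM (−0.55). For each of these genes both LN libraries stood above both tumor libraries.

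**Figure D3:**
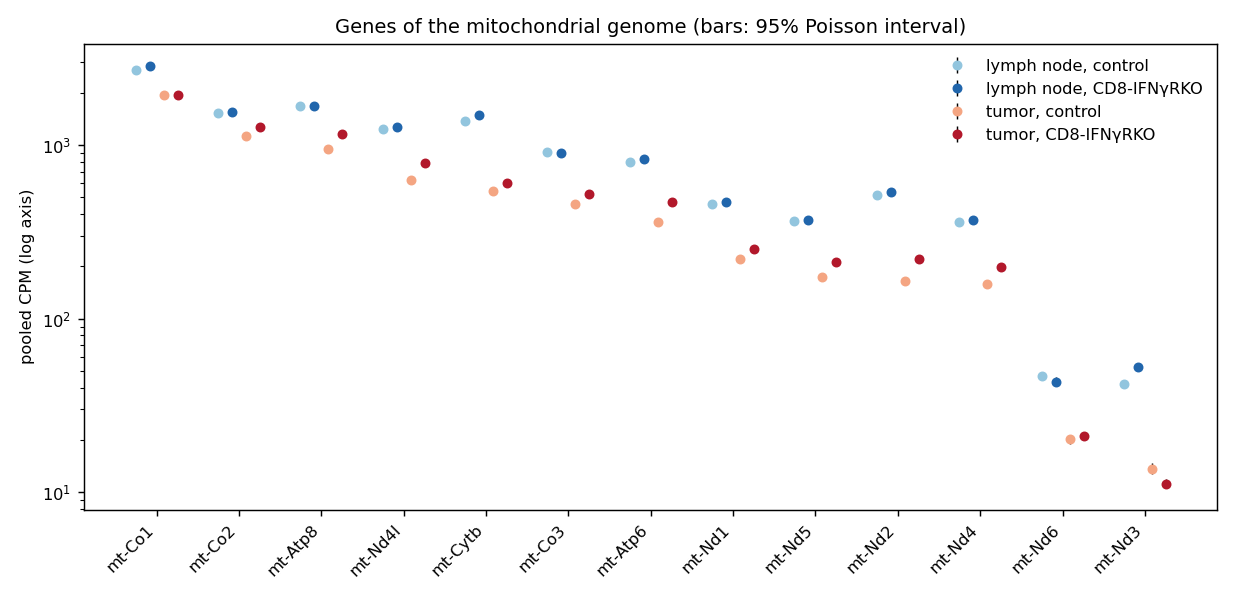
Pooled CPM (log axis) of the 13 mt- genes in the 4 libraries, with 95% Poisson intervals. For each gene both LN libraries lie above both tumor libraries, and the CD8-IFNγRKO tumor lies at or above the control tumor for all but mt-Nd3.

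Neighbouring mt- genes overlap, and their UMIs cannot be assigned with certainty. mt-Atp8 and mt-Atp6 share 43 bases, mt-Nd4l and mt-Nd4 share 7, and each pair is carried by 1 messenger RNA. This kit reads from the 5′ end, and where the reads fell within each pair was not tested. UMIs of mt-Atp8 outnumbered those of mt-Atp6 by 2.66 and 2.47 times in the control and CD8-IFNγRKO tumors and by 2.10 and 2.03 times in LN. For mt-Nd4l over mt-Nd4 the ratio was 3.96 and 3.95 in tumors and 3.45 and 3.44 in LN. mt-Nd6 overlaps mt-Nd5 by 14 bases on the opposite strand and had fewer UMIs than its neighbour by 7.76 to 9.93 times.

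The same directions were seen in cells of like depth, and in cells with a proliferation UMI, which were not matched for depth. In cells with 1600 to under 4000 UMIs the nuclear sum was 23383 CPM in the control tumor against 18135 CPM in LN and the mt- sum 7152 against 11767 CPM. In cells with 8000 to under 16000 UMIs the nuclear sums were 27437 and 19584 CPM and the mt- sums 6591 and 12635 CPM. The nuclear sum thus stood higher in deeper tumor cells, from 22718 to 28760 CPM across 4 depth classes in the CD8-IFNγRKO tumor and from 23383 to 28899 CPM in the control tumor, while the mt- sum ranged from 7484 to 8159 CPM and from 6591 to 7152 CPM. Of the cells with a proliferation UMI, those of the control tumor held 28461 nuclear and 6779 mt- CPM, and the 188 such cells of the control LN held 21739 and 11939 CPM. Their mean depth was 12778 UMIs per cell in the control tumor and 6455 in the control LN. At most 19 LN cells per library had 16000 or more UMIs, so no LN value is drawn there.

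**Figure D4:**
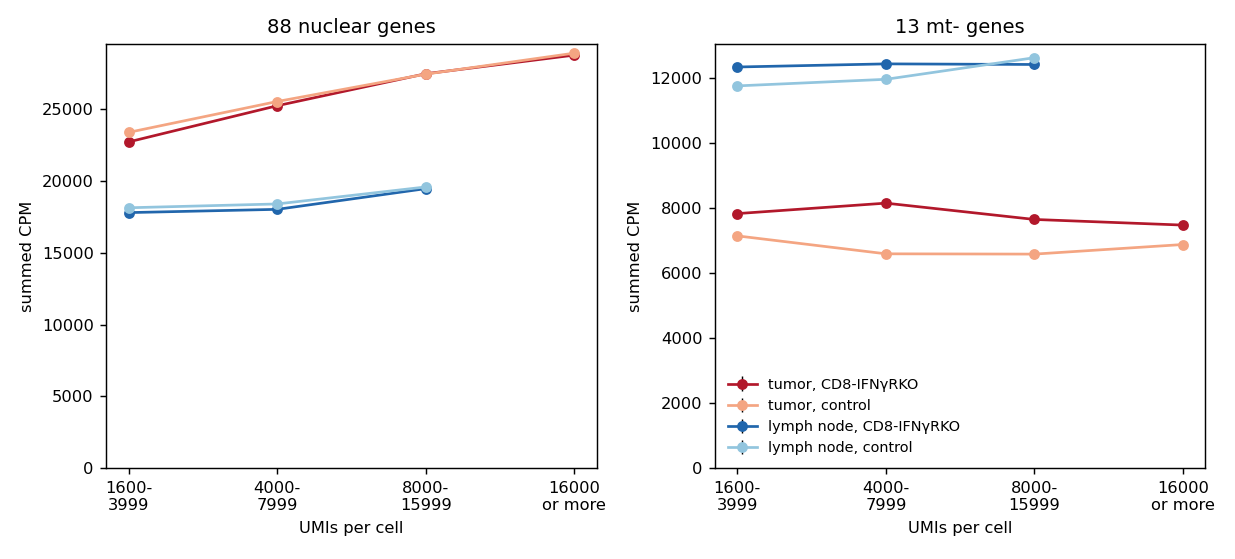
Summed CPM of the nuclear genes (left) and mt- genes (right) in cells of 4 classes of UMIs per cell, for the 4 libraries, with 95% Poisson intervals and classes of under 50 cells left out. Tumor lies above LN for nuclear genes and below it for mt- genes in each class where LN is drawn, which leaves out the deepest. The 2 tumors part on the right, where the CD8-IFNγRKO tumor is higher.

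Within each library, cells were also split by state. Cells with a proliferation UMI had a median nuclear log2 ratio over the other cells of 0.14 in each tumor, 0.21 in the CD8-IFNγRKO LN and 0.22 in the control LN, where the median of all genes was −0.07 and −0.03 in the CD8-IFNγRKO and control tumor and 0.10 and 0.06 in the LNs. They also held more UMIs, with means of 13287 against 7717 per cell in the CD8-IFNγRKO tumor, 12778 against 7249 in the control tumor, 5741 against 4267 in the CD8-IFNγRKO LN and 6455 against 4581 in the control LN. The mt- sum differed by 0.02 in each tumor and by −0.11 and −0.01 in the LNs. Cells with a UMI of Tcf7, the transcription factor that marks stem-like and naive T cells, were 5.24% of the CD8-IFNγRKO tumor, 2.92% of the control tumor and 57.2% and 58.2% of the LNs after thinning. In tumors, they had lower nuclear and higher mt- levels than cells without one, and they were shallower, with a mean of 4797 against 11557 UMIs per cell in the CD8-IFNγRKO tumor and 4961 against 9310 in the control tumor. The part of this depth difference was not tested. Nuclear medians were −0.29 and −0.27 in the CD8-IFNγRKO and control tumor, with 40 and 41 of 88 genes lower and 3 higher past the fold in each, where 32.1% and 29.4% of all genes were lower. The mt- sum was higher by 0.29 and 0.28, with 8 of 13 genes past the fold in each, where 32.6% and 35.2% of all genes were higher. In LN the same split gave nuclear medians of −0.02 and −0.00 and a ratio of mt- sums of −0.00 in each library. The split by Tcf7 was added after the data were seen.

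Between the genotypes, the tumor libraries had almost the same nuclear sum, 27573 CPM in CD8-IFNγRKO and 27175 CPM in control (log2 ratio 0.02), and differed in the mt- sum, 7647 against 6730 CPM (0.18, 0.18 to 0.19). Of the nuclear members 9 were higher and 4 lower past the fold, with a median of 0.08, against 22.4% of 11975 genes higher and 16.8% lower (median 0.02) and 18.3% and 14.1% of genes with 50 CPM (median 0.03). The nuclear shares of 10.2% and 4.55% were thus below those of all genes. Of the 13 mt- genes, 12 were above 0 and 4 past the fold, namely mt-Nd2 (0.41, 0.38 to 0.45), mt-Atp6 (0.38, 0.36 to 0.41), mt-Nd4 (0.33, 0.30 to 0.37) and mt-Nd4l (0.33, 0.31 to 0.35), with a median of 0.20. Next came mt-Atp8 (0.28), mt-Nd5 (0.28), mt-Nd1 (0.20), mt-Co3 (0.20), mt-Co2 (0.17), mt-Cytb (0.14) and mt-Nd6 (0.07, −0.03 to 0.18). The gene with most UMIs of them, mt-Co1, was at 0.01 (0.00 to 0.02), and mt-Nd3 went the other way (−0.29, −0.42 to −0.16). By complex, the mt- genes summed to 1699 against 1374 CPM for complex I (0.31, 0.29 to 0.32), 1618 against 1308 CPM for complex V (0.31, 0.30 to 0.32) and 3730 against 3504 CPM for complex IV (0.09, 0.08 to 0.10).

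**Figure D5:**
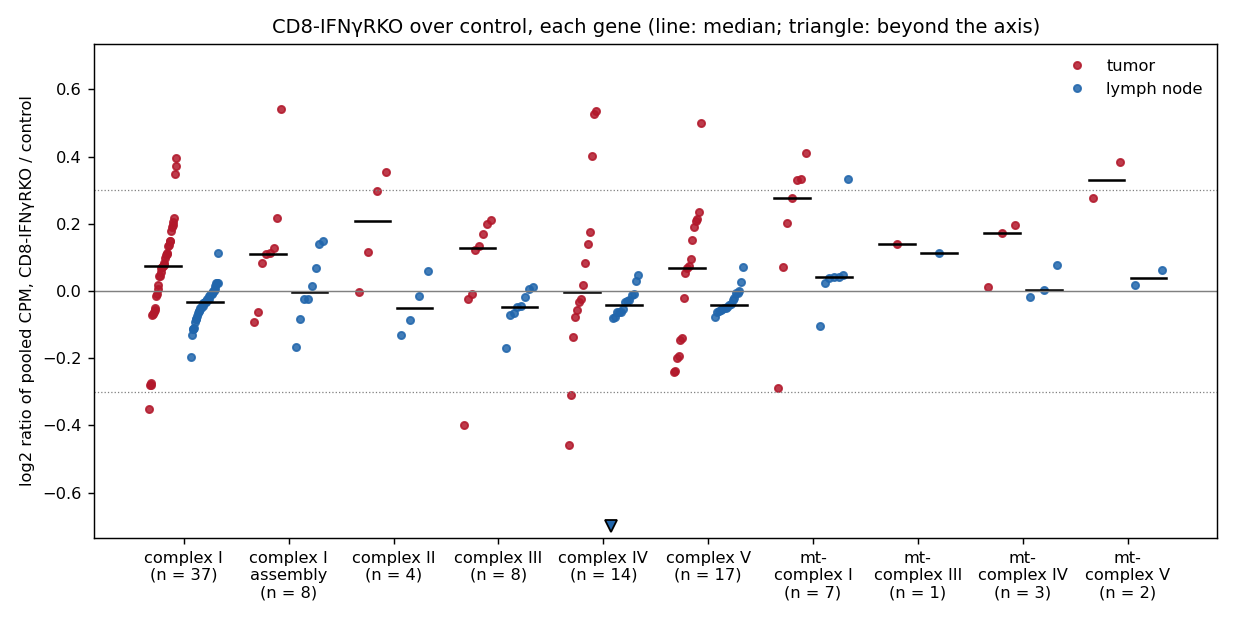
Log2 ratio of pooled CPM, CD8-IFNγRKO over control, for each gene by complex, in tumor (red) and LN (blue). Dotted lines mark ±0.3, and the triangle is Cox7a1 in LN with 1 against 5 UMIs. The tumor genes spread to both sides of 0 in complexes I, III, IV and V. The LN genes other than Cox7a1 and mt-Nd3 (0.33) lie within the dotted lines.

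Single nuclear genes lay on both sides of these nearly equal sums. Higher in the CD8-IFNγRKO tumor were Ndufa4, a subunit of complex IV (410 against 282 CPM, 0.54, 0.51 to 0.56), Atp5b, the catalytic beta subunit of the ATP synthase (791 against 559 CPM, 0.50, 0.48 to 0.52), Cox6a1 (409 against 310 CPM, 0.40), the mitochondrial acyl carrier protein Ndufab1 (228 against 173 CPM, 0.39, 0.36 to 0.43), Ndufa9 (0.37), the membrane anchor Sdhc of complex II (56.1 against 43.9 CPM, 0.35, 0.29 to 0.42), Ndufa12 (0.35) and, with fewer UMIs, Ndufaf6 (0.54) and Cox7a1 (0.53, 0.21 to 0.85). Lower were Uqcrh (520 against 685 CPM, −0.40, −0.42 to −0.38), Ndufb1-ps (211 against 269 CPM, −0.35, −0.38 to −0.32), Cox7c (645 against 798 CPM, −0.31, −0.33 to −0.29) and Cox6b2 (−0.46, −0.80 to −0.11). The gene symbol Ndufb1-ps stands for a pseudogene in the files and for Ndufb1 in RefSeq. In the CD8-IFNγRKO and control LN, Ndufa4 was at 352 and 340 CPM, so its level in the control tumor was the lowest of the 4 libraries. Atp5b was at 516 and 534 CPM in these LNs, and the CD8-IFNγRKO tumor was the highest. Uqcrh was at 583 and 612 CPM, between the 2 tumors. By complex, the highest and lowest genes not yet named were Uqcr10 in complex III (0.21), Sdha in complex II (−0.00), Atp5md in complex V (−0.24), and Ndufaf4 and Ndufaf3 among the assembly factors (0.22 and −0.09).

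Within strata of tumor cells the nuclear sums of the genotypes stayed close while the mt- sums stayed apart. Cells with a proliferation UMI held 28184 nuclear CPM in the CD8-IFNγRKO tumor and 28461 CPM in the control tumor, and 7669 against 6779 mt- CPM. Cells without one held 25877 and 26039 nuclear CPM, and 7582 against 6677 mt- CPM. By depth, from the shallowest to the deepest class, the mt- sums were 7837 against 7152, 8159 against 6600, 7657 against 6591 and 7484 against 6886 CPM. Cells with a Tcf7 UMI held 9315 mt- CPM in the 438 cells of the CD8-IFNγRKO tumor and 8164 CPM in the 187 cells of the control tumor. In each of these strata at least 11 of 13 mt- genes were above 0, and 1 to 8 were higher past the fold. In cells with and in cells without a proliferation UMI, and in the deepest class, 1 mt- gene was lower past it. Shares of all genes within the strata were not computed, so these counts cannot be set against genes in general. mt-Nd2 stayed between 0.35 and 0.49 and Uqcrh between −0.41 and −0.29, Atp5b between 0.27 and 0.51, and Ndufa4 between 0.28 and 0.77, its highest value in cells with 4000 to under 8000 UMIs. mt-Co1 stayed between −0.07 and 0.15.

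In LN the sums of the genotypes were close. Nuclear members summed to 18105 CPM in CD8-IFNγRKO and 18580 CPM in control (−0.04, −0.04 to −0.03) and mt- genes to 12386 and 11991 CPM (0.05, 0.04 to 0.05). The nuclear shift was small but mostly one way, with 69 members below 0 and 19 above (median −0.03). The interval lay wholly below 0 for 27 of 88 members and wholly above 0 for 3, and held 0 for the others. Among all genes the interval lay below 0 for 939 and above 0 for 1756. Of all 11674 genes, 5020 lay below 0 and 6654 above (median 0.02), and the median of those with 50 CPM was 0.03. Of 88 nuclear members 0 were higher past the fold and 1 was lower, Cox7a1 with 1 against 5 UMIs (−2.27, −7.83 to 0.89), against 6.86% and 7.72% of 11674 genes and 1.26% and 1.12% of genes with 50 CPM. The highest and lowest genes with 20 CPM were Ndufb1-ps (0.11, 0.06 to 0.17) and Ndufs8 (−0.20, −0.28 to −0.12) in complex I, Ndufaf8 (0.01) and Ndufaf3 (−0.17) among the assembly factors, Sdhd (0.06) and Sdhc (−0.13) in complex II, Uqcr10 (0.01) and Uqcrq (−0.17) in complex III, Ndufa4 (0.05) and Cox6b1 (−0.08) in complex IV, and Atp5k (0.07) and Atp5g2 (−0.08) in complex V. The mt- median was 0.04, and only mt-Nd3 was past the fold (52.9 against 42.0 CPM, 0.33, 0.22 to 0.44), opposite in sign to its ratio in the tumor. mt-Cytb was at 0.11 and mt-Nd6 at −0.11 (−0.22 to 0.01), and the other 10 lay between −0.02 and 0.08. These libraries also enter the comparisons between tumor and LN.

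Genes that build, feed or serve the chain were followed as lists, naming the highest and lowest gene among those with 20 CPM in either library. The shares of all genes past the fold given above hold for these counts too. In tumor over LN they were 37.7% higher and 37.3% lower in control mice, and 39.0% and 37.3% in CD8-IFNγRKO mice. Between genotypes they were 22.4% and 16.8% in tumor, and 6.86% and 7.72% in LN. A list of 20 genes covered cytochrome c and coenzyme Q, the mobile carriers, and proteins that feed electrons to coenzyme Q. It also held Cyc1, the cytochrome c1 of complex III, which the choice of members by symbol did not take. Of these 20 genes, 9 were higher and 3 lower in tumor than LN in control mice (median 0.23). In CD8-IFNγRKO mice 11 were higher and 3 lower (0.40). Gpd2, which passes glycerol phosphate electrons to coenzyme Q, was highest (82.9 against 15.0 CPM, 2.47, and 89.4 against 17.3 CPM, 2.37), with Coq5 (−0.21) and Coq10b (−0.06) lowest. Between genotypes in the tumor 6 were higher and 3 lower, from Coq7 (0.45) to Coq10b (−0.32). Cyc1 was among the higher, at 153 against 114 CPM (0.42, 0.38 to 0.47). In LN 0 were higher and 0 lower, from Cycs (0.05) to Etfb (−0.15). Of 23 factors that assemble complex IV, 13 were higher in tumor in each genotype, led by the copper chaperone Cox17 (588 against 130 CPM, 2.17, and 643 against 126 CPM, 2.35), and Cox10, a heme synthesis enzyme, was lowest (−1.12 and −0.77). Between tumor genotypes they ran from Higd1a (0.35) to Pet100 (−0.67), with 4 higher and 2 lower, and in LN from Sco2 (0.10) to Cox19 (−0.12).

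Other assembly factors and carriers were fewer. Of 11 further assembly factors of complex I, 2 were higher and 4 lower in the control tumor than LN, from Tmem126a (1.52) to Dmac1 (−0.83), and 5 and 3 in CD8-IFNγRKO mice, from Tmem126a (1.38) to Dmac2 (−0.75). Between tumor genotypes 2 were higher and 0 lower, from Tmem70 (0.40) to Tmem126a (−0.15), and in LN 0 and 0, from Dmac2 (0.01) to Ecsit (−0.11). Of the 4 genes for assembly of complex II, Sdhaf2 was highest in tumor over LN (0.64 and 0.55) and Sdhaf1 lowest (−0.32 and 0.05), and between genotypes they ran from Sdhaf1 (0.15) to Sdhaf4 (−0.05) in tumor and from Sdhaf2 (0.06) to Sdhaf1 (−0.21) in LN. Of 6 for complex III, 1 was higher and 3 were lower in tumor than LN in each genotype (medians −0.25 and −0.31). Among those with 20 CPM, Uqcc2 was highest in tumor over LN (1.15 and 1.23), with Uqcc3 (0.28) lowest in control and Uqcc1 (−0.45) in CD8-IFNγRKO mice, and between genotypes Uqcc2 (−0.01) and Uqcc3 (−0.22) were the ends in tumor and Uqcc1 (0.09) and Uqcc3 (−0.16) in LN. Of 9 ATP synthase assembly factors and carriers, 5 were higher in control and 6 in CD8-IFNγRKO tumor than LN and 0 lower, from the outer membrane channel Vdac3 (1.06 and 1.32) to Slc25a4 (0.22 and 0.12), and between genotypes they ran from Vdac1 (0.36) to the uncoupling protein gene Ucp2 (707 against 1004 CPM, −0.51) in tumor and from Vdac1 (0.07) to Ucp2 (−0.16) in LN.

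Genes that express and keep the mitochondrial genome were more often lower than higher in tumor. Of all genes, 37.7% were higher and 37.3% lower in control mice, and 39.0% and 37.3% in CD8-IFNγRKO mice. Of the 24 in this list, 5 were higher and 16 lower in the control tumor than LN (median −0.54). In CD8-IFNγRKO mice 4 were higher and 11 lower (−0.26). Among those with 20 CPM, the RNA-binding partner Slirp was highest (1.02 and 1.07), and the transcription factor Tfb2m (−0.74) and the DNA polymerase Polg (−0.73) were lowest in control and CD8-IFNγRKO mice. In the tumor, 9 of 24 were higher in CD8-IFNγRKO than in control and 0 lower (median 0.17), from Lrpprc, which stabilizes mt- messenger RNAs (28.1 against 22.3 CPM, 0.33), to Hsd17b10 (−0.19), and in LN 1 was higher and 0 lower, from Polg (0.12) to Slirp (−0.12). Mitochondrial ribosomal protein genes, 78 in all, were higher in tumor than LN for 40 and lower for 9 in control mice (0.31), and 56 and 3 in CD8-IFNγRKO mice (0.52), from Mrpl53 (1.33 and 1.76) to Mrps5 (−0.90 and −0.73). Between tumor genotypes 22 were higher and 0 lower (median 0.22), from Mrps22 (20.1 against 12.6 CPM, 0.67) to Mrps6 (−0.20), and in LN 0 and 0, from Mrps12 (0.12) to Mrpl52 (−0.23). Of all genes, 22.4% were higher and 16.8% lower between tumor genotypes, and 6.86% and 7.72% in LN.

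The list of the tricarboxylic acid cycle, which supplies NADH and succinate, also held Pdha1, Pdhb, Pdhx and Dlat of pyruvate dehydrogenase, which feeds the cycle. Of its 18 genes, 7 were higher and 5 lower in the control tumor than LN (median 0.01). In CD8-IFNγRKO mice 8 were higher and 3 lower (0.29). Idh3a (1.09) and Fh1 (1.26) were the highest in control and CD8-IFNγRKO mice, and Idh2 was lowest in both (4.71 against 44.1 CPM, −3.23, and 8.82 against 44.2 CPM, −2.32). In the tumor 6 were higher and 0 lower in CD8-IFNγRKO (median 0.21), from citrate synthase Cs (151 against 112 CPM, 0.43) to Idh3b (0.03), and in LN 0 and 0, from Suclg1 (0.18) to Cs (−0.06). Among 11 regulators of mitochondrial genes, 3 were higher and 5 lower in tumor over LN in control mice and 2 and 3 in CD8-IFNγRKO mice. Hif1a was highest (2.04 and 1.61), and Myc (42.7 against 208 CPM, −2.28) and Pprc1 (−1.17) were lowest in control and CD8-IFNγRKO mice. Between tumor genotypes 3 were higher and 0 lower, from Myc (94.98 against 42.7 CPM, 1.15) to Hif1a (−0.28), and in LN 0 and 0, from Hif1a (0.15) to Nrf1 (−0.05). Ppargc1a, the coactivator best known for mitochondrial biogenesis, had 15 UMIs in all 4 libraries.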

How the data were processed

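Single-cell 5′ RNA libraries (10x) of sorted CD8 T cells were used, 1 per tissue and genotype, each from 3 pooled mice. The counts deposited by the authors are UMIs per gene and barcode from Cell Ranger 6.0.0 on mm10 with the 10x mouse reference, filtered for cell barcodes only. Cells were kept by the limits of the study: 200 to 6000 genes, at most 3% mt- UMIs, at most 20% from 1 gene and a UMI of each of Cd2, Cd8a and Cd8b1. Doublets were kept and no caller was run. T cell receptor files were not used.

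UMIs were summed per library and divided by the total (CPM). With 1 library per group no test was possible. Log2 ratios carry exact binomial and levels exact Poisson 95% intervals, which cover counting error only, and their coverage was checked on simulated data. States were called after thinning to 1600 UMIs per cell, which left out 41 to 701 cells per library.

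The members and lists were chosen with earlier results of these data known. Named were all mt- genes, the highest and lowest nuclear gene of each complex with 20 CPM, isoform pairs, and the highest and lowest gene of each list, and other genes past the fold were named after their values were seen. RefSeq matched 101 of 101 members. In all 24 settings were run, 2 of them added after the data were seen. The scripts ran on scipy 1.17.1 and numpy 2.4.6 in Python 3.11.15, with pandas 2.3.3 for tables and matplotlib 3.10.9 for plots.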

Additional observations from a re-analysis of the deposited data

How the results depend on the processing

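No paired analysis was possible because each tissue and genotype had 1 library, so no library was left out in turn either. The 16 counts of nuclear and mt- genes past the fold stayed within 1.5 times their value in 320 of 372 recomputations, and the cause of the others was not tested. Apart from those given above for the changed total in control mice, no shares of all genes are given for these settings. The counts below therefore describe the members alone and cannot be set against genes in general. In cells with a proliferation UMI, 8 nuclear genes were lower in tumor than LN in CD8-IFNγRKO mice, and 3 were higher, 7 lower and 0 mt- genes higher in the CD8-IFNγRKO LN, where mt-Nd3 turned to −0.10. In the shallowest class (1600 to under 4000 UMIs), 7 nuclear genes were lower in tumor than LN in control mice, and 6 lower and 44 higher in CD8-IFNγRKO mice. In the next class, 8 mt- genes were higher in the CD8-IFNγRKO tumor, 6 nuclear genes were lower in tumor than LN in CD8-IFNγRKO mice, and in LN 1 nuclear gene was higher, 0 were lower and 0 mt- genes were higher. At 8000 to under 16000 UMIs, 5 nuclear genes were higher in the CD8-IFNγRKO tumor, 4 lower in tumor than LN in CD8-IFNγRKO mice, and 1 higher and 2 lower in the CD8-IFNγRKO LN. Above that, with too few LN cells for other comparisons, 7 nuclear genes were lower and 1 mt- gene was higher and 1 lower in the CD8-IFNγRKO tumor. In cells with a Tcf7 UMI, 7 nuclear genes were lower in tumor than LN in control and 4 in CD8-IFNγRKO mice, 1 was lower and 2 mt- genes higher in the CD8-IFNγRKO tumor, and 0 nuclear genes were lower in the CD8-IFNγRKO LN. In cells without one, the LN had 1 nuclear and 0 mt- genes higher. In cells without a Tcf7 UMI, in cells with and in cells without a proliferation UMI, and with the median centred, 1 mt- gene was lower in the CD8-IFNγRKO tumor.

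With the total less mt-, ribosomal protein, T cell receptor and heat shock genes, 37 nuclear genes were higher and 11 lower in tumor than LN in control mice, and 10 lower in CD8-IFNγRKO mice. With the median of genes with 50 CPM set to 0, these lower counts were 9 and 10, and 7 nuclear genes were lower in the CD8-IFNγRKO tumor. At a log2 ratio of 0.5, the tumor genotypes differed in 4 nuclear genes higher, 0 lower and 0 mt- genes higher, 2 and 1 nuclear genes were lower in tumor than LN in control and CD8-IFNγRKO mice, and 0 mt- genes were higher in the CD8-IFNγRKO LN. Adding 1 CPM, adding 10 CPM or requiring 500 UMIs left 0 nuclear genes lower in the CD8-IFNγRKO LN. Adding 10 CPM also left 2 lower in tumor than LN in control mice and 0 mt- genes higher in the CD8-IFNγRKO LN, and all barcodes or no filter on Cd2, Cd8a and Cd8b1 gave that 0 too. Leaving out the Ndufaf assembly factors, Ndufb1-ps and Cox7a2l gave 1 and 0 lower in tumor than LN in control and CD8-IFNγRKO mice. Thinned cells gave 1 nuclear gene higher in the CD8-IFNγRKO LN.

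Across all settings, the ratio of mt- sums between tumor genotypes stayed between 0.12 and 0.31 and that of nuclear sums between −0.04 and 0.04. Between the LNs the mt- sums ranged from −0.06 to 0.07 with no fixed direction, and from tumor to LN the mt- sums stayed below 0 and the nuclear sums above 0 in both genotypes. Counting error is small for most members, but below about 20 CPM, as for Cox7a1 and Cox6b2 in LN, depth limits the ratio. The spread between mice was not measured.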
